A study of Homo sapiens with 30 samples.

Results

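CUT&Tag of TSA-treated K562 cells with the H3K27ac antibody ab4729 gave 22808 SEACR peaks on chromosomes 1 to 22 and X, of which 7879 (34.5%) had no counterpart in a set of untreated lists (hg19). A peak was taken as unmatched when it shared no base with any peak of 5 untreated H3K27ac lists at 15 PCR cycles, from ab177178, ab4729, the Active Motif antibody 39133 and Diagenode C15410196 at 1/100 and 1/50. The remaining 14929 peaks of the same list overlapped at least 1 of those 5 lists and are called matched peaks here. Of the unmatched peaks, 2033 turned up in other untreated H3K27ac lists, so they are called by this rule and not gained peaks. Over all 30 SEACR lists of the series there were 587932 peaks. K562 is an established human chronic myeloid leukaemia line, and each CUT&Tag experiment used 500000 growing cells. The libraries compared were ab4729 at 1/100 with TSA, the 3 other TSA libraries (ab177178 at 1/100, Diagenode at 1/100 and at 1/50), 5 H3K27me3 libraries made with CST9733 at 1/100 without TSA, 16 untreated H3K27ac libraries at 11 and 13 cycles, and the 5 untreated libraries above. TSA and 15-cycle libraries were extracted with SDS, and libraries at 11 and 13 cycles with SDS or on a column. The dose and duration of TSA are not given in the labels, and each condition had 1 library, so no difference between single libraries has a replicate check.

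Trichostatin A (TSA) blocks histone deacetylases, the enzymes that remove acetyl groups from histone tails. Acetylation of lysine 27 of histone H3 (H3K27ac) marks active promoters and enhancers. Trimethylation of the same residue (H3K27me3) is written by the Polycomb complex PRC2 and marks silent chromatin, and 1 lysine cannot carry both modifications. In CUT&Tag an antibody brings a transposase to the marked chromatin, and the fragments it releases are sequenced.

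By median, the unmatched peaks were weaker and narrower than the matched peaks of the ab4729 TSA list. The signal in these lists is in whole numbers, as unscaled fragment coverage would be, and is given per peak as a total over its bases and as a maximum. Median total signal was 1962 (quartiles 1740 to 2424) in unmatched peaks and 3009 (2094 to 5102) in matched peaks. Median maximum signal was 5 in unmatched peaks and 7 in matched peaks, and it was at most 5 in 56.8% of unmatched peaks against 21.99% of matched peaks. Median width was 852 bp (quartiles 694 to 1028) in unmatched peaks and 985 bp (742 to 1401) in matched peaks. At like total signal the order was the opposite. In each of 10 equal groups by total signal, unmatched peaks had the larger median width. It was 744 against 676 bp in the weakest group and 2244 against 2190 bp in the strongest. Ranked by total signal, unmatched peaks had a median percentile of 30.0 and matched peaks of 63.2. Unmatched peaks were 61.7% of the weakest 10% of the list and 1.89% of the strongest 10%. They made up 34.5% of peaks, 27.8% of peak bases and 17.8% of total signal. These values come from the list that the peaks were chosen from and are given as a description, without a test.

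By total signal, nearly every unmatched peak lay below the weakest peak of the untreated ab4729 list, while by maximum signal most did not. The lowest total signal was 1596 in the ab4729 TSA list and 8528 in the untreated ab4729 list. Of the 7879 unmatched peaks, 7853 were below 8528 and 26 (0.330%, 95% Wilson interval 0.225 to 0.483) were at or above it, against 1597 (10.7%) of the matched peaks. The lowest maximum signal in the untreated ab4729 list was 5, and 5315 unmatched peaks (67.5%) and 91.5% of matched peaks were at or above it. Total signal also grows with width, and peaks of the untreated list were wider, with a median of 2736.5 bp. The untreated Diagenode list at 1/50 began at 5455, with 118 unmatched peaks at or above that value. The untreated lists of ab177178, Diagenode at 1/100 and Active Motif began at 2714, 2442 and 1492, with 1333, 1913 and all 7879 unmatched peaks at or above. The labels state no read depth for the 15-cycle libraries, and treatment with TSA and the signal needed for a call cannot be told apart. Of the 26 unmatched peaks above the untreated ab4729 minimum in total signal, 23 were found in at least 1 of the 16 untreated lists at 11 and 13 cycles, against 1587 of the 1597 matched peaks above it and 60.7% of the whole TSA list. At least 1 H3K27me3 list held 19 of the 26 and 914 of the 1597 (57.2%), against 29.5% of the whole TSA list.

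**Figure D1:**
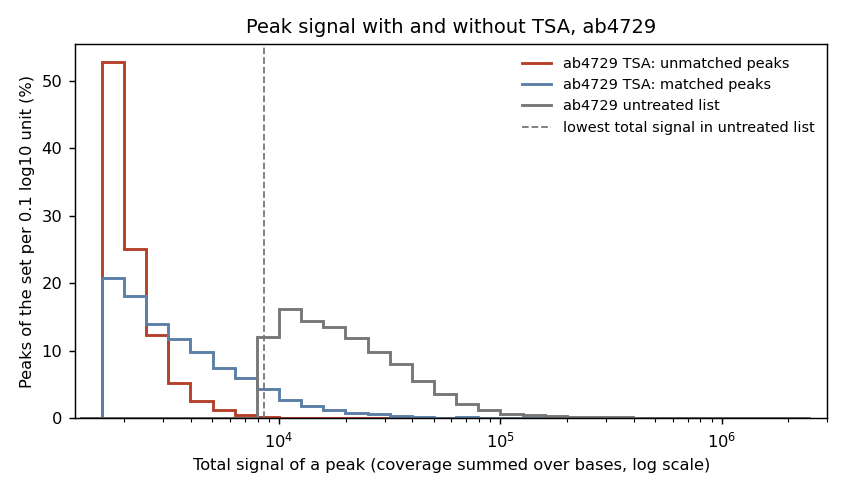
Distribution of total signal per peak (x axis, coverage summed over bases, log scale; y axis, percent of the set per 0.1 log10 unit) for unmatched and matched peaks of the ab4729 TSA list and for the untreated ab4729 list. The dashed line is the lowest total signal in the untreated list, 8528, and 7853 of the 7879 unmatched peaks lie to its left.

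Unmatched peaks overlapped H3K27me3 more often than matched peaks of the same library in each of the 5 CST9733 lists. In the SDS list at 15 cycles the share was 36.8% of unmatched peaks (Wilson interval 35.7 to 37.9) and 12.1% of matched peaks (11.5 to 12.6), with 20.6% over the whole TSA list. In the SDS list at 13 cycles it was 25.8% of unmatched and 8.49% of matched peaks, with 14.5% over the whole list. In the column list at 13 cycles it was 22.3% of unmatched and 7.50% of matched peaks, with 12.6% over the whole list. The SDS list at 11 cycles held 21.9% of unmatched and 8.43% of matched peaks, with 13.1% over the whole list. The gap was smallest in the column list at 11 cycles, 26.4% of unmatched and 16.9% of matched peaks, with 20.2% over the whole list. The mean difference was 15.97 ± 5.65 percentage points (SD, n = 5 lists), higher in unmatched peaks in 5 of 5 lists. An exact two-sided sign-flip permutation test over the 5 lists gave p = 0.0625, the smallest value that 5 lists allow. The design could therefore not reach 0.05. All 5 lists score the same split of the same TSA list, so p measures only the spread between H3K27me3 lists. By the rule, matched peaks overlap untreated H3K27ac peaks, a mark that excludes H3K27me3 on the same lysine. The split was thus not independent of H3K27me3, and how much of the difference follows from the rule was not tested.

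**Figure D2:**
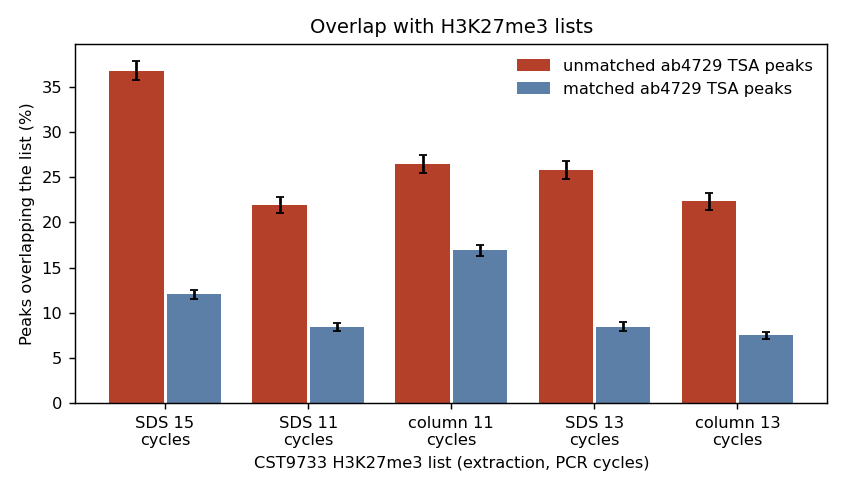
Percent of unmatched and matched ab4729 TSA peaks (y axis) that overlap each CST9733 H3K27me3 list by at least 1 bp (x axis, extraction and PCR cycles). Bars are shares and error bars 95% Wilson intervals; the unmatched share is higher in all 5 lists, by 9.51 points in the column list at 11 cycles and by 24.7 points in the SDS list at 15 cycles.

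The H3K27me3 overlap was a property of a minority of the unmatched peaks. Of the 7879 peaks, 4535 (57.6%) overlapped none of the 5 H3K27me3 lists, 2327 overlapped 1 to 4 and 1017 (12.9%) overlapped all 5. Among matched peaks 77.4% overlapped none and 5.26% all 5, and over the whole TSA list 7.91% overlapped all 5. At least 1 list held 42.4% of unmatched and 22.6% of matched peaks, with 29.5% over the whole list. Counted by bases, H3K27me3 peaks of the 15-cycle list covered 32.8% of the unmatched and 12.5% of the matched sequence, while that list covers 4.91% of the chromosomes. The other lists covered 15.1% to 19.1% of unmatched and 7.42% to 12.4% of matched bases, and 1.53% to 2.08% of the chromosomes. Where an unmatched peak overlapped the 15-cycle list, the median share of it inside H3K27me3 was 100%. The 2891 H3K27me3 peaks involved had a median percentile by total signal of 84.7 within their list and a median width of 1841 bp, against 75.7 and 1158 bp for the 1639 H3K27me3 peaks that touched matched peaks. By median maximum signal the order was the opposite, 9 for those that touched unmatched and 10 for those that touched matched peaks.

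The difference in H3K27me3 overlap was present at every level of peak strength in the TSA list. With the list cut into 10 equal groups by total signal, in the weakest group 37.8% of unmatched and 7.33% of matched peaks overlapped the 15-cycle H3K27me3 list. In the strongest group 60.5% of 43 unmatched peaks and 26.5% of matched peaks did. In the 8 groups between, the shares were 31.2% to 42.1% of unmatched and 7.82% to 13.6% of matched peaks. With the TSA list divided into 5 groups by total signal, a setting chosen after the data had been seen, the mean difference over the 5 H3K27me3 lists was 19.04 points. Divided by width it was 18.2 points. Unmatched peaks in all 5 H3K27me3 lists had a median width of 925 bp and a median total signal of 2078, against 816 bp and 1959 for those in none.

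**Figure D3:**
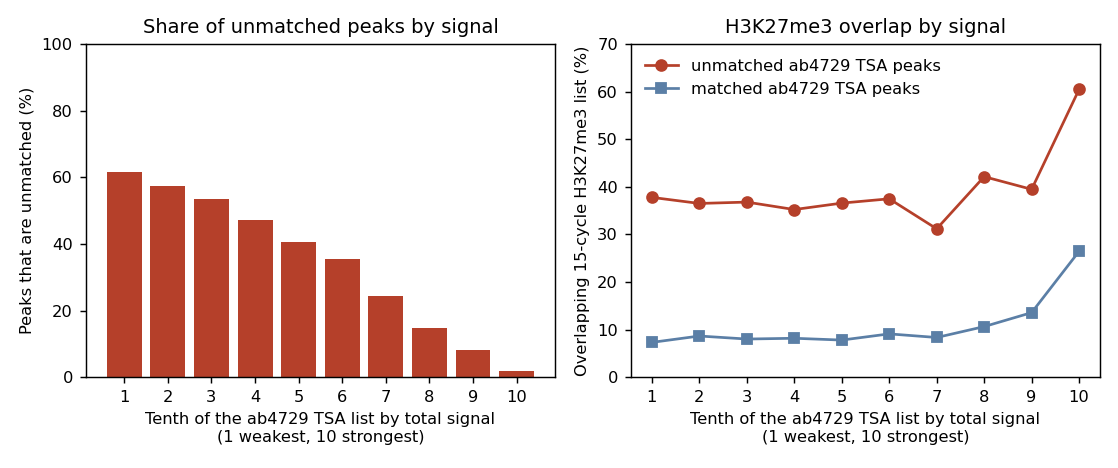
Left, percent of ab4729 TSA peaks that are unmatched (y axis) in each of 10 equal groups of the list by total signal (x axis, weakest first). Right, percent of unmatched and matched peaks overlapping the 15-cycle H3K27me3 list in the same groups; the unmatched share is above the matched share in each of the 10.

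The unmatched peaks were nearly absent from the other TSA libraries. The ab177178 TSA list held 198 of them (2.51%, Wilson interval 2.19 to 2.88) against 31.0% of matched peaks, with 21.2% over the whole ab4729 TSA list. Diagenode with TSA at 1/100 held 17 unmatched peaks (0.216%) against 25.3% of matched peaks, with 16.7% over the whole list. Diagenode with TSA at 1/50 held 50 (0.635%) against 34.4% of matched peaks, with 22.8% over the whole list. In total 255 unmatched peaks (3.24%) were in at least 1 other TSA list, against 48.8% of matched peaks and 33.0% of the whole list. Only 10 unmatched peaks were in 2 of the 3 lists, where the share over the whole list in at least 2 was 18.4%. In all 3 there were 0 of 7879, which allows a share of up to 0.0381% (3 counts of 7879), against 9.16% of the whole list. The other TSA lists are smaller, with 4462 to 7056 peaks, and the unmatched peaks are absent from the untreated lists of these antibodies by the way they were chosen.

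Untreated libraries that took no part in the choice also held unmatched peaks. At least 1 of the 16 untreated H3K27ac lists at 11 and 13 cycles contained 1470 unmatched peaks (18.7%, Wilson interval 17.8 to 19.5) against 82.9% of matched peaks, with 60.7% over the whole TSA list. At least 2 of these lists contained 502 (6.37%), with 48.2% over the whole list. The antibody ab177178 gave most of them, 1153 peaks (14.6%, with 52.5% over the whole list) in at least 1 of its 4 lists. The 4 lists of ab4729 itself held 193 (2.45%, with 36.8% over the whole list), those of Active Motif 292 (3.71%, with 35.0%) and those of Diagenode 247 (3.13%, with 35.9%). Among single lists, untreated ab177178 at 11 cycles held 6.70% with SDS (31.4% over the whole TSA list) and 5.48% on a column (26.0%), and at 13 cycles 3.64% with SDS (31.0%) and 3.16% on a column (30.5%). Each was above the 2.51% of the ab177178 TSA list. The other 12 lists held at most 1.69%, in Active Motif at 11 cycles on a column, against 24.4% of the whole TSA list. The 4 untreated ab177178 lists cover 8.67 to 11.5 Mb, against 6.33 Mb for the ab177178 TSA list. Per Mb covered, the ab177178 TSA list held 31.3 unmatched peaks. The untreated ab177178 lists held 46.3 and 49.8 at 11 cycles and 24.9 and 23.7 at 13 cycles.

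**Figure D4:**
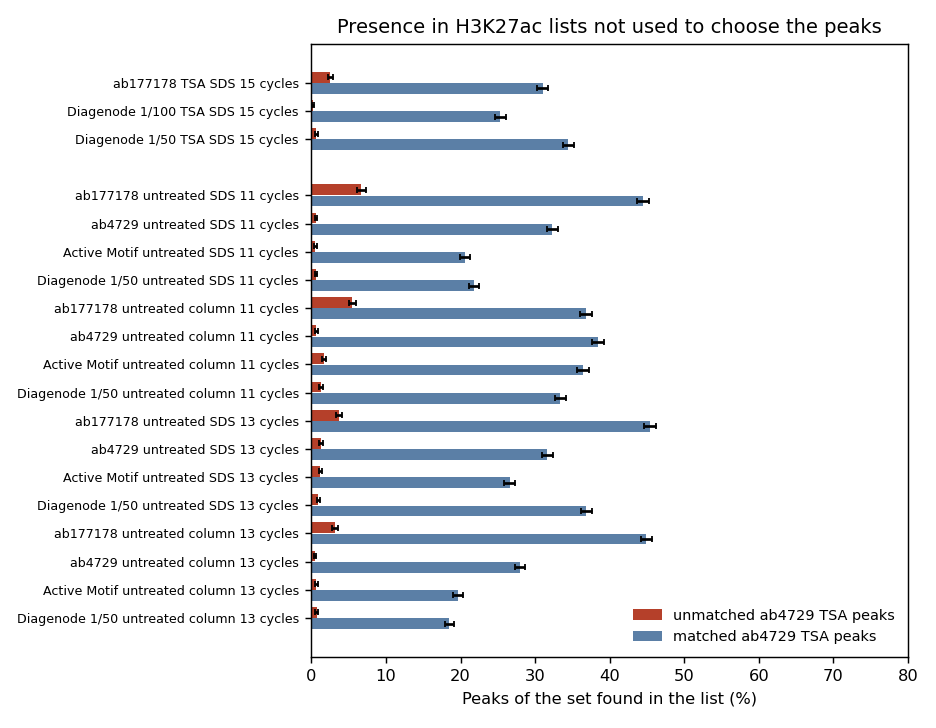
Percent of unmatched and matched ab4729 TSA peaks (x axis) found in each of the 3 other TSA lists (upper rows) and of the 16 untreated H3K27ac lists at 11 and 13 cycles (lower rows). Bars are shares and error bars 95% Wilson intervals; unmatched peaks reach 6.70% at most, in untreated ab177178 at 11 cycles with SDS, and matched peaks lie at 18.5% or above.

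A second peak caller found part of the unmatched peaks in the same untreated libraries. At least 1 of the 5 untreated MACS2 lists at 15 cycles contained 1092 (13.9%, with 63.2% over the whole TSA list), and 860 (10.9%, with 56.1%) were in the MACS2 list of untreated ab4729. Diagenode at 1/50 held 447 (5.67%, with 49.5%), ab177178 87 (1.10%, with 26.8%), Diagenode at 1/100 48 (0.609%, with 22.2%) and Active Motif 10 (0.127%, with 6.10%). The MACS2 peaks of untreated ab4729 that met an unmatched peak had a median −log10 q of 11.9, against 24.9 for those that met a matched peak and 16.6 for the whole MACS2 list. Together, the untreated H3K27ac lists of MACS2 and those at 11 and 13 cycles accounted for 2033 unmatched peaks (25.8%, with 70.3% over the whole TSA list). The other 5846 were in no untreated H3K27ac list. Their share overlapping the 15-cycle H3K27me3 list was 42.6%, and it was 19.97% for the 2033. The other 4 H3K27me3 lists held 24.8% to 29.8% of the 5846 and 12.7% to 16.7% of the 2033. At least 1 other TSA list held 84 (1.44%) of the 5846 and 171 (8.41%) of the 2033. The 2033 also had a higher median total signal, 2241 against 1897 for the 5846.

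Unmatched peaks lay on every chromosome analysed, most densely on chromosomes 22 and 21. Density was 6.32 per Mb on chromosome 22, 5.05 on chromosome 21, 4.25 on chromosome 19 and 4.09 on chromosome 7, and it was lowest on chromosome X at 0.960. The unmatched share of TSA peaks was 50.0% on chromosome 21 (243 of 486 peaks, Wilson interval 45.6 to 54.4), 41.2% on chromosome 7, 27.7% on chromosome 22 (324 of 1169, 25.2 to 30.4) and 25.5% on chromosome 12 (171 of 671, 22.3 to 28.9), against 34.5% over the list. Chromosome 22 thus had the highest density of unmatched peaks and a share of them below that of the list. The 15-cycle H3K27me3 share was higher in unmatched than in matched peaks on 23 of 23 chromosomes. It was 61.4% and 57.3% on chromosome 22, 53.5% and 18.1% on chromosome 21 and 55.3% and 16.7% on chromosome 17. K562 carries abnormal copy numbers, among them an amplified fusion of BCR and ABL1, and signal was not corrected for copy number, whose part in these values was not tested.

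A larger share of the unmatched than of the matched peaks lay near chromosome ends, though matched peaks were more numerous and denser there. Of unmatched peaks 1508 (19.1%) lay within 5 Mb of an end, against 1924 matched peaks (12.9%). Density of unmatched peaks was 9.20 per Mb in the outer 1 Mb, 7.74 from 1 to 2 Mb, 5.28 from 2 to 5 Mb and 2.10 beyond 20 Mb. Matched peaks had 14.5, 8.96, 6.12 and 4.52 per Mb in the same zones. Unmatched peaks were 38.8%, 46.4%, 46.3% and 31.7% of the TSA peaks in these zones, against 34.5% over the list. Between 1 and 2 Mb from an end, 61.0% of unmatched and 21.6% of matched peaks overlapped the 15-cycle H3K27me3 list, and beyond 20 Mb 30.2% and 11.0% did. Unmatched peaks in all 5 H3K27me3 lists were within 5 Mb of an end in 30.6% of cases, against 12.6% of those in none. Without the outer 5 Mb of each chromosome, a setting added after the data had been seen, the mean difference in H3K27me3 overlap was 13.2 points.

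**Figure D5:**
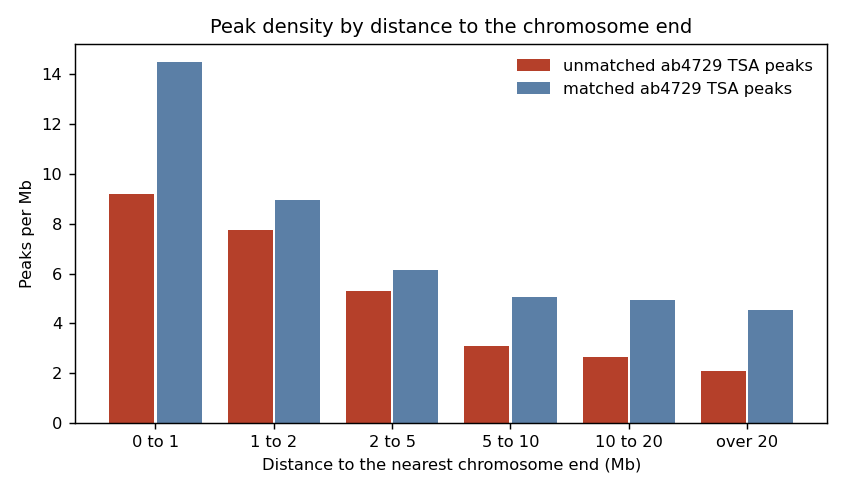
Density of unmatched and matched ab4729 TSA peaks (y axis, peaks per Mb) by distance to the nearest chromosome end (x axis, Mb). The ends are the start of the chromosome sequence and, at the far end, the outermost peak of any list. Unmatched peaks have 9.20 per Mb in the outer 1 Mb and 2.10 per Mb beyond 20 Mb.

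Unmatched peaks lay at a median of 20222 bp from the nearest peak of the 5 untreated lists (quartiles 4537 to 71078.5). The gap was at most 1000 bp for 795 unmatched peaks (10.1%) and at most 10000 bp for 2915 (37.0%). The median gap was 15193 bp for unmatched peaks in no H3K27me3 list, 34239 bp for those in 1 to 4 and 18805 bp for those in all 5. At the edge of the definition, the unmatched peak on chromosome 22 from 23143353 to 23144371 abutted an untreated peak, and that on chromosome 8 from 124624730 to 124625678 was 1 bp away from one. Just outside it, the peak on chromosome 1 from 142872672 to 142873317 shared 1 base with an untreated peak, and that on chromosome 9 from 108410842 to 108411371 shared 4.

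The unmatched peaks were spread over 1877 bins of 1 Mb, with a median of 3 in a bin that held any, and 339 bins held 50% of them. The fullest bins were on chromosome 22. From 20000001 to 21000000 there were 54 unmatched and 137 matched peaks, and from 19000001 to 20000000 there were 53 and 119. The 15-cycle H3K27me3 list held 70.4% of unmatched and 61.3% of matched peaks in the first of these bins, and 32.1% of unmatched and 43.7% of matched peaks in the other. Outside chromosome 22 the fullest bins had more unmatched than matched peaks. Chromosome 7 from 157000001 to 158000000 held 45 and 11, with 84.4% of the 45 and 45.5% of the 11 in the 15-cycle H3K27me3 list. Chromosome 7 from 155000001 to 156000000 held 40 and 13, with 82.5% of the 40 and 61.5% of the 13 in that list. Chromosome 5 from 1 to 1000000 held 38 and 20, with 84.2% of the 38 and 40.0% of the 20 in that list. Chromosome 10 from 47000001 to 48000000 held 36 and 15, with 83.3% of the 36 and 73.3% of the 15 in that list. Chromosome 21 from 43000001 to 44000000 held 35 and 12, with 77.1% of the 35 and 16.7% of the 12 in that list. Across 2562 bins, Spearman's rho of the unmatched count was 0.44 with H3K27me3 peaks at 15 cycles and 0.46 with untreated ab4729 peaks. For matched peaks it was 0.38 and 0.87. Bins share the library and the copy number of the line, and these values are descriptive.

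Most unmatched peaks lay outside runs of neighbouring unmatched peaks. Joined across gaps of up to 10 kb, 70.3% of unmatched peaks stood alone and 29.7% had a neighbour. The longest run, 17 peaks over 56.6 kb on chromosome 4 from 9217965 to 9274563, had 17 peaks in at least 1 H3K27me3 list, and a run of 16 from 9324745 to 9368341 had 16. A run of 13 peaks on chromosome 19 from 37764195 to 37794482 had 1 peak in any H3K27me3 list. A run of 10 on chromosome 8 from 86798371 to 86835517 had 10, and 9 peaks on chromosome 4 from 190986450 to 191013565 had none. Among all unmatched peaks the share in at least 1 H3K27me3 list was 42.4%. Whether these runs lie in repeated sequence was not tested.

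Windows of whole megabases that hold gene loci familiar in K562 were counted from general knowledge of hg19, since no annotation of that build was used. The homeobox (HOX) clusters, which encode body-axis transcription factors and are classical Polycomb targets, held 0 to 4 unmatched peaks a window. The HOXA window had 0 unmatched and 3 matched peaks and held 116 peaks of the 15-cycle H3K27me3 list. The HOXB window had 0 and 9 beside 48, and the HOXC window 1 and 14 beside 130. The HOXD window, of 2 Mb, had 4 and 8 beside 168. In H3K27me3 lay 0 of 1 unmatched peak in the HOXC window and 2 of 4 in the HOXD window. In the HOXD window the unmatched share of TSA peaks was 33.3%, near the 34.5% of the list, and with so few peaks the other windows are given as counts. The window with H19 and IGF2, imprinted growth genes on chromosome 11, had 11 unmatched and 6 matched peaks and held 148 H3K27me3 peaks. Of the 11, 4 were in at least 1 H3K27me3 list, against 42.4% of all unmatched peaks. The alpha-globin window at the start of chromosome 16 had 16 and 23, and 5 of the 16 were in H3K27me3. The beta-globin window had 4 and 15, and the major histone gene cluster, with 66 untreated ab4729 peaks, had 4 and 46. Windows with GATA1 and GATA2, erythroid and progenitor transcription factors, had 2 and 21, and 1 and 17. The windows with BCR and ABL1 had 22 and 138, and 19 and 80. In at least 1 H3K27me3 list were 18 of the 22 and 11 of the 19, against 42.4% of all unmatched peaks. Matched peaks were also often in H3K27me3 on chromosome 22, where the 15-cycle list held 57.3% of them, and 17.8% on chromosome 9. The window with CDKN2A, a cell cycle inhibitor that K562 is known to have lost, had no peak of the TSA list, of untreated ab4729 or of the 15-cycle H3K27me3 list.

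The same rule picked far fewer peaks from the other libraries. Against the same 5 untreated lists it left 580 peaks (8.22%) of the ab177178 TSA list, 40 (0.896%) of Diagenode with TSA at 1/100 and 109 (1.73%) of Diagenode with TSA at 1/50. Averaged over the 5 H3K27me3 lists, 26.6% of the ab4729 unmatched peaks overlapped H3K27me3, against 11.3%, 8.50% and 8.26% of these 3 sets. In the remaining peaks of the same lists the shares were 10.7%, 9.02%, 9.19% and 7.82%, in that order. In the 16 untreated lists at 11 and 13 cycles the rule left 59 to 2158 peaks, or 1.26% to 21.7% of a list. Their mean H3K27me3 overlap was 2.00% to 29.4%, against 6.86% to 13.9% in the remaining peaks of those lists. The rule left the most peaks in untreated ab177178 at 11 cycles, 2158 with SDS (21.2% overlap) and 1970 with column extraction (29.4%). By overlap, Active Motif at 11 cycles with column extraction lay between them, at 25.2% of 314 peaks. Peaks left by the rule in these 3 untreated libraries had median widths of 857, 793 and 872 bp and a median maximum signal of 4, 3 and 4. Peaks as narrow and low were also left in lists with little H3K27me3 overlap, such as Active Motif at 13 cycles with SDS, at 633 bp, a maximum of 4 and 7.57%, and Diagenode at 13 cycles on a column, at 656 bp, a maximum of 4 and 6.53%. These examples are at 13 cycles and the 3 libraries before them at 11 cycles, and the cause of the difference in overlap was not tested. The 4 untreated ab4729 lists left 59 to 215 peaks with a mean overlap of 2.33% to 6.67%.

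The strongest unmatched peaks were wider than most. The first by total signal was on chromosome 19 from 37783243 to 37787289, 4047 bp wide with a total of 17209 and a maximum signal of 11, and it was in no H3K27me3, other TSA or other untreated list. The next had totals of 15744, on chromosome 10 from 42727748 to 42731305, 15396, on chromosome 3 from 195228559 to 195233267, and 15234, on chromosome 2 from 87655011 to 87657197. The peak on chromosome 2 overlapped all 5 H3K27me3 lists, as did those on chromosome 6 from 169239853 to 169241313 (14655) and from 170804299 to 170805997 (13272). Of the 10 strongest, 9 were in at least 1 H3K27me3 list, against 29.5% of the whole TSA list and 42.4% of all unmatched peaks. Overlap was also high among strong matched peaks, at 57.2% of those above the untreated ab4729 minimum in total signal. The peaks on chromosomes 10 and 3 above were each in 1 H3K27me3 list, not that at 15 cycles. At least 1 of the 16 untreated lists at 11 and 13 cycles held 9 of the 10, against 60.7% of the whole TSA list. An untreated MACS2 list held 4 of the 10, against 63.2% of the whole TSA list, and another TSA list held 4, against 33.0%. The strongest of those in no H3K27me3 list after the first had totals of 10825, on chromosome 7 from 64350212 to 64352456, and of 10630, on chromosome 3 from 4572351 to 4575839. Each was found in 4 of the 16 untreated lists. Among the 10 unmatched peaks in 2 other TSA lists, the strongest was a narrow peak of 367 bp on chromosome 1 from 91852782 to 91853148, with a maximum signal of 40. It was found with TSA by ab177178 and by Diagenode at 1/50, and also in 1 untreated MACS2 list, 1 of the 16 untreated lists and the 15-cycle H3K27me3 list. Whether these strongest peaks lie in repeats or in regions prone to mapping artefacts was not tested.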

How the data were processed

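Peak lists of K562 CUT&Tag libraries on hg19 were used as deposited. Per the submitters' processing notes, the authors' tools included Bowtie2 2.2.9, Trim Galore 0.6.6, SAMtools 1.3.1, Picard 2.6.0, MACS2 and SEACR. Per the labels, duplicates were removed, and libraries at 11 and 13 cycles were downsampled to 1 depth. The sources used here give neither that depth nor SEACR's mode and threshold. For each peak the deposited SEACR lists hold the authors' total signal and maximum signal, in whole numbers in all 30 lists. The 6 deposited MACS2 lists give a −log10 q-value per peak, which is the authors' own.

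Other sequences than chromosomes 1 to 22 and X were dropped, which left out 2.23% of the ab4729 TSA list. No filter for repeats or for regions prone to mapping artefacts was applied here. Overlap meant at least 1 shared bp. Shares carry 95% Wilson intervals over peaks, and a count of 0 an upper limit of 3 counts, which cover counting error only and treat neighbouring peaks as independent. The single test was an exact sign-flip permutation over 5 H3K27me3 lists, each scoring the same split of the TSA list. No label says if libraries are of separate cultures, so its p measures spread between these libraries, which may be technical. Chromosome ends were taken as the start of the sequence and, at the far end, the outermost peak of any list. Regions were named by fixed rules on total signal, on the number of lists and on distance to untreated peaks, with the fullest bins, and windows around known loci were fixed by hand. Runs of neighbouring peaks were an addition. The peaks, windows and tests were chosen with earlier results of these data known. The work was done in Python 3.11.15 with pandas 2.3.3, numpy 2.4.6, matplotlib 3.10.9 and scipy 1.17.1. Scripts were checked on simulated intervals, and bedtools 2.31.1 counted the same 7879 peaks. No hg19 genome or annotation was used, so peaks are given by position without genes or sequence.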

Additional observations from a re-analysis of the deposited data

Results flagged for a closer look

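Peaks absent from the 5 untreated 15-cycle lists differed in direction between libraries in how they overlapped H3K27me3, relative to the remaining peaks of the same list. In ab4729 with TSA the unmatched peaks exceeded the remaining ones by 15.97 percentage points on average over the 5 H3K27me3 lists. In each of the 4 untreated ab4729 lists at 11 and 13 cycles they lay below them, by -5.13 to -1.76 points. With TSA and Diagenode at 1/100 the value was -0.69 points, from 40 peaks, and it was 2.32 for ab177178 and 0.43 for Diagenode at 1/50. In 5 of the 16 untreated lists at 11 and 13 cycles the value was above 0, up to 15.5 points in ab177178 at 11 cycles with column extraction. These differences between libraries were not tested, since each condition had 1 library.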

How the results depend on the processing

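The number of unmatched peaks depended most on the signal required. It was 7879 as defined, 2742 when the TSA list was reduced to its 13394 strongest peaks, and 26 when TSA peaks had to reach the lowest total signal of the untreated ab4729 list, a setting added after the data had been seen. Under the other 7 settings it ranged from 6409 to 11044, the highest being against the untreated ab4729 list alone. The H3K27me3 difference of 15.97 points kept its direction in all 15 settings run, from 9.62 with the 20000 strongest H3K27me3 peaks per list to 21.7 against the untreated ab4729 list alone. Leaving out 1 H3K27me3 list gave 13.8 to 17.6 points with p = 0.125 by exact permutation, the smallest that 4 lists allow. These leave-one-out settings are among the 15 but could not reverse the direction, since the difference was positive in each list. The 15-cycle H3K27me3 share was 39.3% with the MACS2 list and 32.8% when 50% of the peak had to be covered. Presence in another TSA list was 4.84% with gaps of up to 1 kb and 2.46% at 50% coverage. Presence in untreated H3K27ac lists at 11 and 13 cycles was 24.4% and 15.7% under those settings, and 2.45% with the 4 ab4729 lists alone. Median width was 864 bp with neighbours merged and 869 bp against the untreated ab4729 list alone. The cause of these shifts was not tested. No paired analysis was possible by replicate number because each condition had 1 library. Read depth is not stated for the 15-cycle libraries, and the lowest total and maximum signal differ between lists.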
